A study of Homo sapiens with 3 samples.

Results

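Pre-mRNA splicing genes of 4 families were followed in A2780, a cancer line established from an undifferentiated tumour of the ovary, after the microRNA miR-181a was added. The families are the heterogeneous nuclear ribonucleoproteins (hnRNPs), the SR proteins with the SR-related proteins once named alongside them, the SF3A and SF3B complexes, and the proteins of the small nuclear ribonucleoproteins (snRNPs). Members were all RefSeq transcripts whose symbol begins with HNRNP, SRSF and a digit, SFRS and a digit, SF3A or SF3B and a digit, or SNRP. This gave 105 of the 29156 transcripts in the table and 62 of its 18877 genes. The table uses older symbols, so SR proteins appear here as SFRS1 or SFRS2 rather than SRSF1 or SRSF2. The comparison is of 3 libraries, 1 from cells carrying the empty retroviral vector pBABE and 2 from cells with exogenous miR-181a, here pool 1 and pool 2. Whether these are polyclonal pools or clones is labelled both ways, and nothing says how far they are separate cultures. The p-values therefore rest only on how far the 2 miR-181a libraries lie apart, in a gene and in others of like level. That distance may be technical, and the single vector library is taken to vary as those 2 do. In RNA from many cells, fewer cells of a type and less RNA per cell cannot be told apart.

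Introns are removed by the spliceosome, which is assembled on each intron from the U1, U2, U4, U5 and U6 snRNPs. All but U6 carry a ring of Sm proteins around their RNA, while SF3A and SF3B belong to the U2 snRNP and hold it on the branch point. SR proteins bind exons and mostly favour their inclusion, and hnRNPs coat nascent RNA and often oppose it, so their balance sets which exons are kept.

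The mature sequence of hsa-miR-181a-5p, the main arm of miR-181a, is taken from RefSeq on GRCh38.p14 and shown because it defines the target sites examined here. Capitals mark the seed, bases 2 to 8, with which a microRNA pairs with messenger RNA.
hsa-miR-181a-5p: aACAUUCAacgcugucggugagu

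An 8-base match to this seed lies in the 3 prime UTR of the canonical GENCODE transcript of 6 members. They are HNRNPA0, HNRNPR, SFRS6, SFRS7, SFRS11 and SFRS18, and HNRNPA0 has 2 such matches. These 7 sites are shown because they are the strongest matches by sequence that any member carries. They are on GRCh37, the assembly also called hg19, with the match in capitals (TGAATGT followed by A) and read 5 prime to 3 prime along the transcript.
SFRS7 (SRSF7), chr2:38972093-38972121, minus strand: ataaattttgtTGAATGTAttaacatcat
SFRS18 (PNISR), chr6:99847870-99847898, minus strand: aaaattattctTGAATGTActgtgatgtc
SFRS6 (SRSF6), chr20:42092747-42092775, plus strand: ttactgttgaaTGAATGTAtgataaattt
SFRS11 (SRSF11), chr1:70717718-70717746, plus strand: atttacgctacTGAATGTAtgacatttac
HNRNPR, chr1:23635846-23635874, minus strand: tgctggataagTGAATGTAcatacaggga
HNRNPA0, first site, chr5:137086161-137086189, minus strand: tgtgccatgctTGAATGTAttttgacgga
HNRNPA0, second site, chr5:137084556-137084584, minus strand: tccattgtcatTGAATGTAcattctctga

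Each deposited value is a median coverage, the median read density over sliding windows of 50 bp along a transcript. It is a density per position, so levels can be compared between genes, but no read count or depth comes with it. Summed over the 28848 transcripts with a vector value, the vector library reached 798228, pool 1 907092 and pool 2 719263. Transcripts listed at 0 made up 12.8% for the vector, 32.3% for pool 1 and 32.2% for pool 2. Of the 8822 transcripts at 0 in both pools, 62.9% were above 0 in the vector library. No member was among those transcripts. Of 12 markers of ovarian carcinoma lineage, 8 were listed at 0 in both pools, EPCAM, KRT19 and ESR1 among them, and 3 of 4 immune and 3 of 4 endothelial markers were as well. The vector library did hold such values, and the 3 endothelial markers that passed the filter on low values summed to 216 there, 0 in pool 1 and 0.037 in pool 2. KDR had 167 of that vector sum. All 3 passed the filter only through their vector values, so this contrast follows from how they were selected. The part of these differences in the values of the splicing genes was not tested. SMAD7, a reported target of miR-181a, had 58.0 with the vector, 1.87 in pool 1 and 1.56 in pool 2 (log2 fold -4.44, SE 0.19, limma adjusted p = 0.00665). Genes with a mean coverage up to 2.435 were left out of the test, so SMAD7 entered it only through its vector value.

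Splicing factors were among the most abundant transcripts of these cells. Ranked by mean coverage over the 3 libraries among the 12552 genes tested, HNRNPA1 was 15th, its copy HNRNPA1L2 17th, HNRNPA2B1 41st and HNRNPC 64th, and the lowest member, SFRS13B, was at rank 10317. The median coverage over the members was 106 for the vector, 143 for pool 1 and 112 for pool 2, against 18.03, 15.0 and 11.7 over all genes tested. Summed over members, coverage made up 1.93% of that of all tested genes for the vector, 2.62% for pool 1 and 2.94% for pool 2.

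**Figure D1:**
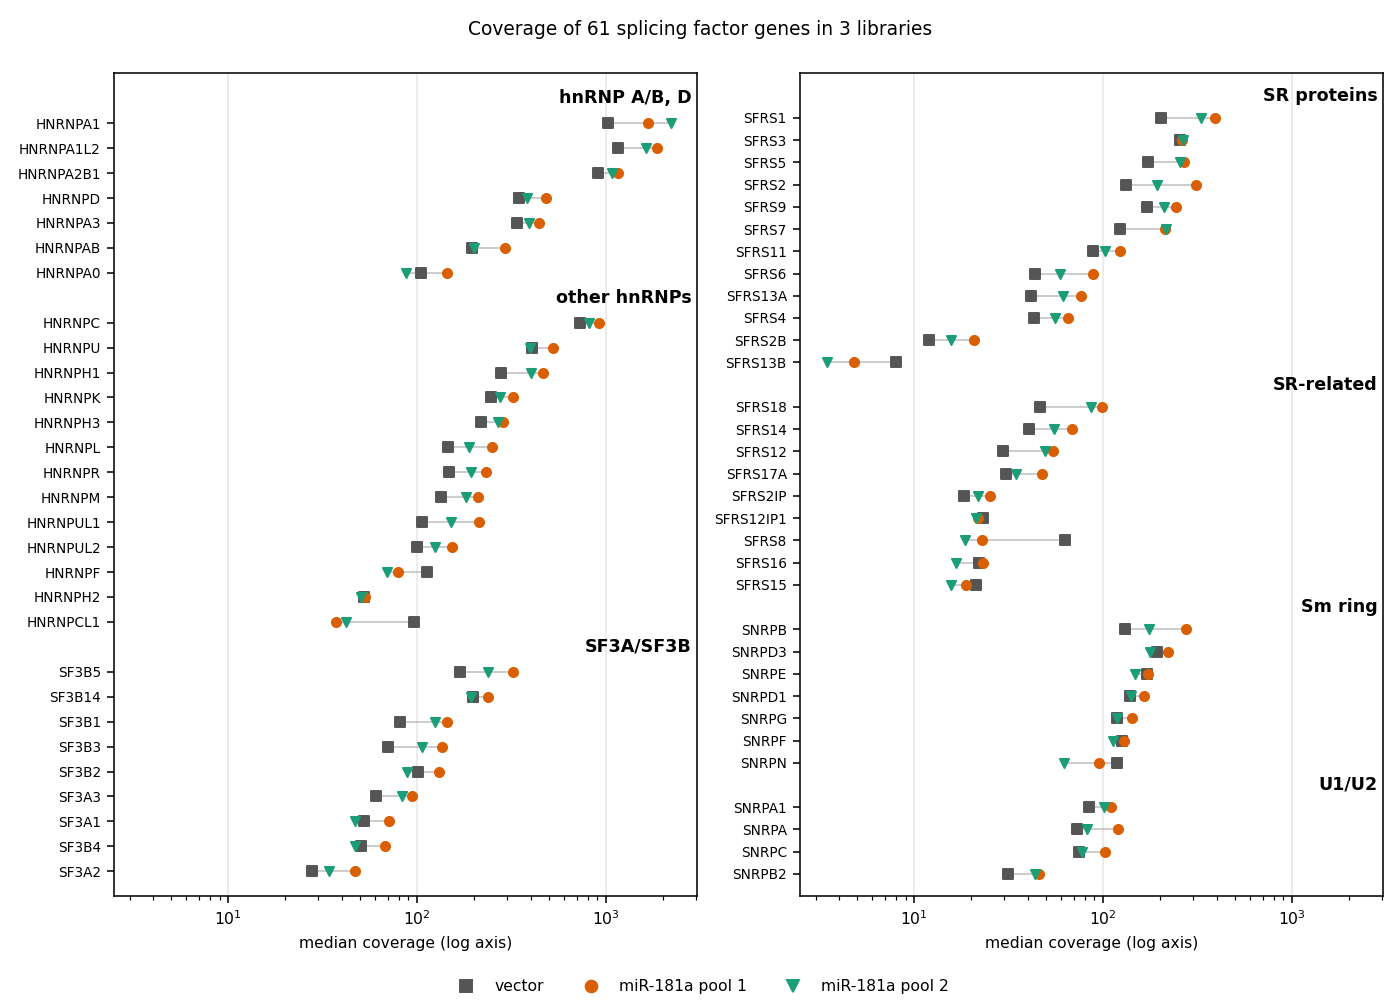
Median coverage (log axis) of the 61 members with a vector value, 1 line per gene, in the vector library (squares), pool 1 (circles) and pool 2 (triangles), grouped by role and ordered by the mean of the pools. HNRNPA1 and HNRNPA1L2 are the highest in every library, and in HNRNPF, HNRNPCL1, SFRS8, SFRS13B, SFRS12IP1, SFRS15 and SNRPN the vector library is the highest of the 3.

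Most members stood somewhat higher in both miR-181a pools, and none passed the test. All 61 genes with a vector value passed the filter on low values and were tested, which leaves out SNRPD2. Of the 61, 42 were higher in both pools (background 44.6% of all genes tested), 7 were lower in both (background 41.8%) and 12 were split. By limma with Benjamini-Hochberg adjustment at 0.05 over all 12552 genes, 0 members rose (background 1%) and 0 fell (background 21.7%). An unadjusted limma p under 0.05 was found in 4 members, SFRS7 and SFRS18 upward and HNRNPCL1 and SFRS8 downward. It was found in 4162 of the 12552 genes tested, and in 229 of the 2124 with a pool mean above 50. At least 1 log2 unit in both pools was reached upward by 0 members (background 2.53%) and downward by 2, HNRNPCL1 and SFRS8 (background 27.3%). A smaller difference of 1.5-fold on that scale was reached upward by 7 members (background 13.6%), namely SFRS18, SFRS7, SFRS12, SFRS1, SF3B1, SF3B3 and HNRNPA1, and downward by 3 (background 31.7%). All log2 folds compare log2(coverage + 1) between libraries, so those of genes with low coverage come out too small.

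The median log2 fold of the members was 0.48 in pool 1 and 0.24 in pool 2, against 0.24 and -0.12 over all genes tested. Abundant genes as a whole stood higher than that. The 2124 tested genes with a pool mean above 50 had medians of 0.64 and 0.30, and 77.5% of them were higher in both pools, while the 50 members above that coverage had 0.54 and 0.28, with 74% higher in both. The limit of 50 was set on the pools and not on the vector, so it favours genes that are higher in the pools. Members as a whole were not picked in this way. How much the choice adds to the medians and the 77.5%, here and where they serve as background below, was not tested. Direction depends on the reference level chosen. Each pool was then shifted so that the median ratio of genes above 50 was 0. The mean log2 fold over both pools then had a median of -0.13 over the members. Under that shift 3 members, SFRS18, SFRS2 and HNRNPA1, rose (background 5.66%) and 13 fell (background 46.1%). When library medians were set equal, 51 members rose (background 50.6%) and 2 fell (background 29.5%). Differences between members, set out next, are the same under either of these shifts.

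**Figure D2:**
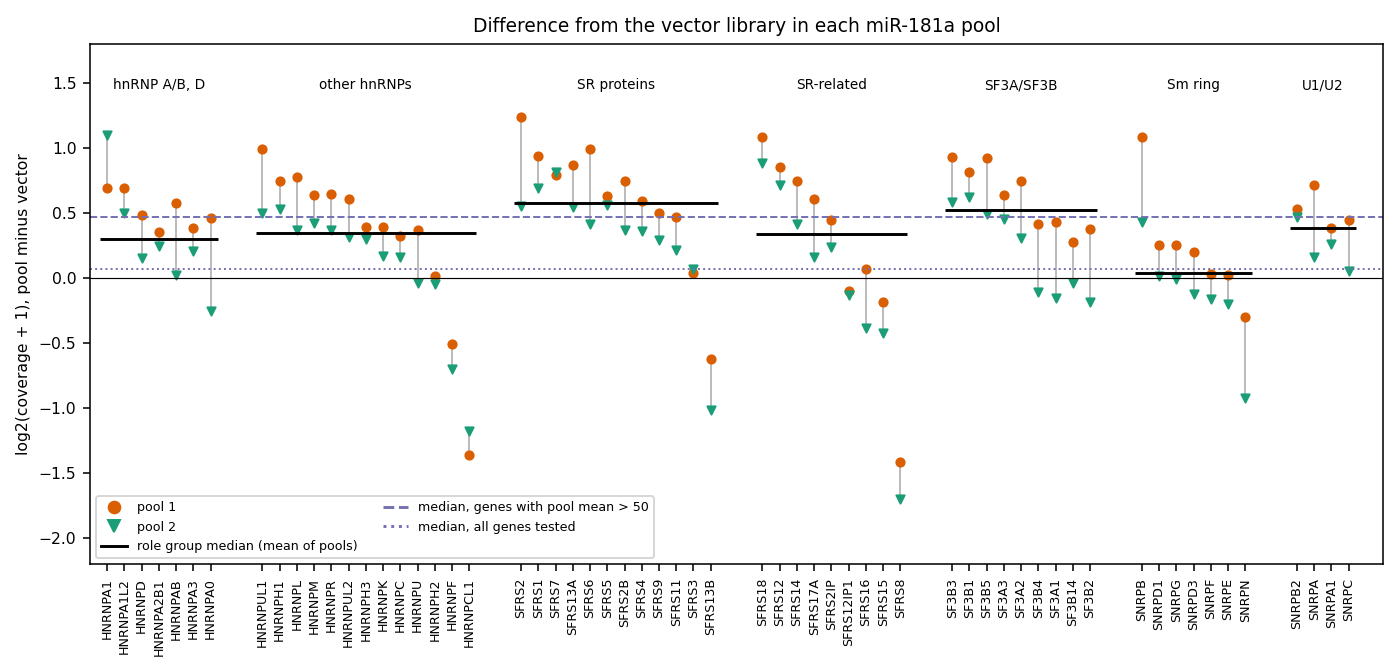
Difference in log2(coverage + 1) from the vector library for each member in pool 1 (circles) and pool 2 (triangles), by role. Black bars are medians of the mean over pools in each role group, from 0.04 in the Sm ring to 0.58 in SR proteins, and the dashed and dotted lines are the medians of genes with a pool mean above 50 (0.47) and of all genes tested (0.07).

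SR proteins stood highest of the role groups. Of 12, 11 were higher in both pools and 1 lower, with none past the test. The median log2 fold was 0.69 in pool 1 and 0.39 in pool 2. Of all genes tested 44.6% were higher in both pools. Of those with a pool mean above 50 it was 77.5%, with medians of 0.64 and 0.30. SFRS7, an SR protein with a zinc knuckle that also serves in messenger RNA export (chromosome 2, 38970741 to 38978636 on GRCh37), stood at 122 with the vector, 213 in pool 1 and 216 in pool 2. Its 2 pool values almost coincided, and its log2 fold of 0.81 (SE 0.17) had a limma adjusted p of 0.119. Without a variance trend in the fit it passed (adjusted p = 0.040), the only member to do so. SFRS1, the founding SR protein and a known proto-oncogene, had 203 with the vector, 391 in pool 1 and 330 in pool 2, so both pools lay well above the vector (log2 fold 0.82, SE 0.24, limma adjusted p = 0.179). SFRS2, which like SFRS1 binds exonic enhancers, had 132, 311 and 193 in the same order. Pool 2 was -0.68 log2 units from pool 1, a wider gap than the 0.55 by which it exceeded the vector, and its adjusted p was 0.298.

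SFRS5 had 172 with the vector, 268 in pool 1 and 255 in pool 2, with the pools close together (log2 fold 0.60, SE 0.18, limma adjusted p = 0.190). SFRS13A, now SRSF10, which represses splicing once it is dephosphorylated, had 41.6, 76.8 and 61.3. SFRS6 had 43.8, 88.0 and 58.8. Both were above the vector in each pool. SFRS4, SFRS9 and SFRS11 followed with log2 folds of 0.48, 0.39 and 0.34. SFRS3, the smallest SR protein, was the member of this group that hardly differed, with 254 with the vector, 261 in pool 1 and 267 in pool 2. SFRS13B, now SRSF12, was the 1 SR protein lower in both pools, with 7.98 with the vector, 4.82 in pool 1 and 3.44 in pool 2 (log2 fold -0.82, SE 0.25, limma adjusted p = 0.185). Quantile normalization turned this to 0.50, past the test (limma adjusted p = 0.025), while the shift by genes above 50 gave -1.29, past it downward (limma adjusted p = 6.65e-05). Of all transcripts with a pool mean of 1 to 10, 27.7% had a vector value more than 2 times the pool mean. SFRS13B did not reach that ratio, and what the property of the vector library adds to its value was not tested.

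SR-related proteins held both extremes of the whole set. These carry stretches of arginine and serine like SR proteins but need not bind exons. SFRS18, now PNISR, a nuclear protein of speckles (chromosome 6, 99845505 to 99873207), had 46.2 with the vector, 99.1 in pool 1 and 86.1 in pool 2. Both pools lay far above the vector, and the log2 fold was the highest of the 61 at 0.98 (SE 0.20, limma adjusted p = 0.113). SFRS12, now SREK1, a regulator of splice site choice, had 29.5, 54.3 and 49.0 (log2 fold 0.79, SE 0.20, limma adjusted p = 0.152). SFRS14, now SUGP2, had 40.7, 68.9 and 54.7, again with both pools above the vector.

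SFRS8, now SFSWAP, the human counterpart of the fly gene suppressor of white apricot, lay at the other end (chromosome 12, 132195626 to 132284283). Its coverage was 62.6 with the vector, 22.8 in pool 1 and 18.6 in pool 2, the lowest log2 fold of the members at -1.56 (SE 0.26, limma adjusted p = 0.082). With the tested genes limited to those above the median coverage it passed (adjusted p = 0.024), as did HNRNPCL1 (adjusted p = 0.020). SFRS8 has a single transcript in the table. Vector values more than 2 times the pool mean were found in 6.73% of all transcripts with a pool mean of 10 to 50, and in 2 of the 15 member transcripts there, which were SFRS8 and HNRNPCL1. How far this property of the vector library enters either value was not tested. SFRS12IP1, SFRS15 and SFRS16 were between -0.11 and -0.30 in mean log2 fold, and SFRS15 and SFRS12IP1 were below the vector in both pools.

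Among the hnRNPs of A/B and D type, which carry paired RNA recognition motifs, 6 of 7 were higher in both pools. That share was 44.6% over all genes tested and 77.5% over those with a pool mean above 50. HNRNPA0 was split, and the median log2 fold of the 7 was 0.30. HNRNPA1, which blocks many exons and antagonises SFRS1 (chromosome 12, 54673977 to 54680872), had 1031 with the vector, 1670 in pool 1 and 2208 in pool 2. It was 1 of only 4 members in which pool 2 exceeded pool 1, the others being HNRNPCL1, SFRS7 and SFRS3 (background 10.4% of tested genes), and the difference between pools, 0.40 log2 units, was the largest of the 4. Its log2 fold of 0.90 had an SE of 0.45, which also draws on the spread between pools of genes of like coverage. The limma adjusted p was 0.303. HNRNPA2B1 had 912, 1165 and 1084, HNRNPA3 had 340, 444 and 392, and HNRNPD, a factor of messenger RNA decay also known as AUF1, had 345, 483 and 384. Their log2 folds were alike at 0.30, 0.30 and 0.32.

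Of the other 13 hnRNPs, 9 were higher in both pools (background 44.6%, or 77.5% above a pool mean of 50). Lower in both were 2, HNRNPF and HNRNPCL1 (background 41.8%), and the median log2 fold of the 13 was 0.35. HNRNPUL1, an hnRNP related to HNRNPU, had 106 with the vector, 212 in pool 1 and 150 in pool 2 (log2 fold 0.74, SE 0.33, limma adjusted p = 0.274). HNRNPH1, which binds runs of guanine, had 278, 467 and 402, with both pools well above the vector (log2 fold 0.64, SE 0.24, limma adjusted p = 0.232). HNRNPC, which binds uridine tracts, had 731, 917 and 820. HNRNPU, a scaffold protein of chromatin, had 409, 528 and 398, so pool 1 was above and pool 2 just below the vector. HNRNPL, HNRNPM, HNRNPR and HNRNPUL2 had log2 folds from 0.46 to 0.58 and HNRNPH3 and HNRNPK 0.35 and 0.28.

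SF3B and SF3A genes formed a higher and a level set. Of 9, 5 were higher in both pools (background 44.6%, or 77.5% above a pool mean of 50). The other 4 were above the vector in pool 1 and below it in pool 2, and the median log2 fold of the 9 was 0.53. SF3B1, which contacts the branch point and is recurrently mutated in cancers, had 80.9 with the vector, 143 in pool 1 and 125 in pool 2 (log2 fold 0.72, SE 0.20, limma adjusted p = 0.170). SF3B3 had 70.5, 135 and 106, and SF3B5, its small partner, had 168, 321 and 237. SF3A3 had 60.4, 94.5 and 83.2, and SF3A2 27.6, 47.1 and 34.4. In these 5 both pools lay above the vector. SF3B14, now SF3B6, the protein that touches the branch point adenosine, had 197, 239 and 192, and SF3B2, SF3B4 and SF3A1 likewise had log2 folds of 0.09 to 0.16 with the pools on either side of the vector.

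Sm ring genes stood lowest. Of 7 tested, 2 were higher in both pools (background 44.6%, or 77.5% above a pool mean of 50), 1 was lower and 4 were split. The median log2 fold was 0.20 in pool 1 and -0.12 in pool 2, so 0.04 over both. SR proteins had medians of 0.69 and 0.39, so the median over both pools was 0.54 log2 units higher there. With another pseudocount, quantile normalization or another choice of transcript the gap was 0.45 to 0.64, and it was given no test. Scalings that shift every gene of a library alike cannot move it. SNRPD3 had 193 with the vector, 222 in pool 1 and 177 in pool 2. SNRPD1 had 139, 166 and 140, SNRPE 170, 172 and 148, SNRPF 126, 129 and 112, and SNRPG 119, 143 and 118. In all 5 the pools lay within 0.26 log2 units of the vector. SNRPB, which encodes SmB, stood higher than these, with 130, 277 and 175 (log2 fold 0.75, SE 0.42, limma adjusted p = 0.335). SNRPN was the 1 gene lower in both pools, by the transcript that stands for it here. With transcripts picked on the pools alone, none of the 7 was lower in both and their median over both pools was 0.12. SNRPD2 could not be compared, since neither of its 2 transcripts has a vector value. One had 1132 in pool 1 and 766 in pool 2 and the other 268 and 289.

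The 4 other members named SNRP, which belong to U1 or U2 alone, were higher in both pools, as were 44.6% of all genes tested and 77.5% of those with a pool mean above 50. SNRPA, the U1 protein that binds a stem loop of U1 RNA, had 73.0 with the vector, 120 in pool 1 and 81.8 in pool 2. SNRPC, the U1 protein at the 5 prime splice site, had 74.8, 102 and 77.5. Their U2 counterparts were SNRPB2, with 31.3, 45.8 and 43.8, and SNRPA1, with 83.8, 110 and 101. Log2 folds were 0.25 to 0.50 and the lowest limma adjusted p was 0.234.

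Several members have similar copies, and how reads were assigned between them bears on their levels. Coding sequences of the canonical transcripts were aligned pairwise. Only the best aligned segment of each pair was kept, so bases outside it were not compared. HNRNPA1L2, a gene without introns on chromosome 13 (53216566 to 53217908), matched HNRNPA1 at 98.4% of the 752 bases of that segment, 78.3% of its coding length. HNRNPCL1, an intronless gene on chromosome 1 (12907230 to 12908573), matched HNRNPC at 94.8% of 879. HNRNPH1 and HNRNPH2 were 87.7% identical, SNRPB and SNRPN 82.1%, and SFRS2 and SFRS2B (now SRSF8) 80.9% over 455 aligned positions. The first 90 coding bases of HNRNPC and HNRNPCL1 are shown because they hold, in capitals, 5 of the differences by which reads of the copies can be told apart.
HNRNPC: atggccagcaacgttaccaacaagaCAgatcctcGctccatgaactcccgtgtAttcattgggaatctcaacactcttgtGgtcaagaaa
HNRNPCL1: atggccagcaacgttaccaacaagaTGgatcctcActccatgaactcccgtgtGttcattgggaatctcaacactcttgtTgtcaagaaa

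In coverage the copies did not follow their parents in every library. The values of HNRNPA1L2 were 1161 with the vector, 1879 in pool 1 and 1642 in pool 2, so it was above HNRNPA1 in the vector library and pool 1 and below it in pool 2. HNRNPCL1 had 96.7, 37.0 and 42.3, so the vector library was more than 2 times each pool (log2 fold -1.27, SE 0.21, limma adjusted p = 0.077), whereas HNRNPC was higher in both pools. SFRS2B had 11.9, 20.7 and 15.7, in the same order as SFRS2. How the authors assigned reads that fit both copies is not given in the sources used here, so the levels of HNRNPA1L2 and HNRNPCL1 are uncertain. Without the 3 copies HNRNPA1L2, HNRNPCL1 and SFRS2B the median log2 fold of the members was 0.34, the value it also had with them.

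In some genes the transcripts differed in the vector library while they were level in the pools. HNRNPF, which binds guanine runs as HNRNPH1 does (chromosome 10, 43881065 to 43904634), has 6 transcripts in the table. All 6 had the same coverage in pool 1, 79.5, and in pool 2, 69.5. In the vector library 3 of them had 66.8, 2 had 110 and 1 had 113. The direction of HNRNPF therefore turned on the transcript chosen, with a mean log2 fold of 0.15 for the first 3 and -0.60 for the highest (limma adjusted p = 0.203), which stands for the gene here. SNRPN, which encodes SmN, a close relative of SmB made from an imprinted locus (chromosome 15, 25068784 to 25223870), behaved in the same way. Its 5 transcripts shared a value of 62.0 in pool 2 and had 95.6 in pool 1, except for one with 91.2, while the vector values were 58.5, 62.9, 62.9, 77.4 and 118. Mean log2 folds ran from 0.36 down to -0.61. SNURF, which shares a transcript with SNRPN, had 146 with the vector, 296 in pool 1 and 284 in pool 2, with a limma adjusted p of 0.096.

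**Figure D3:**
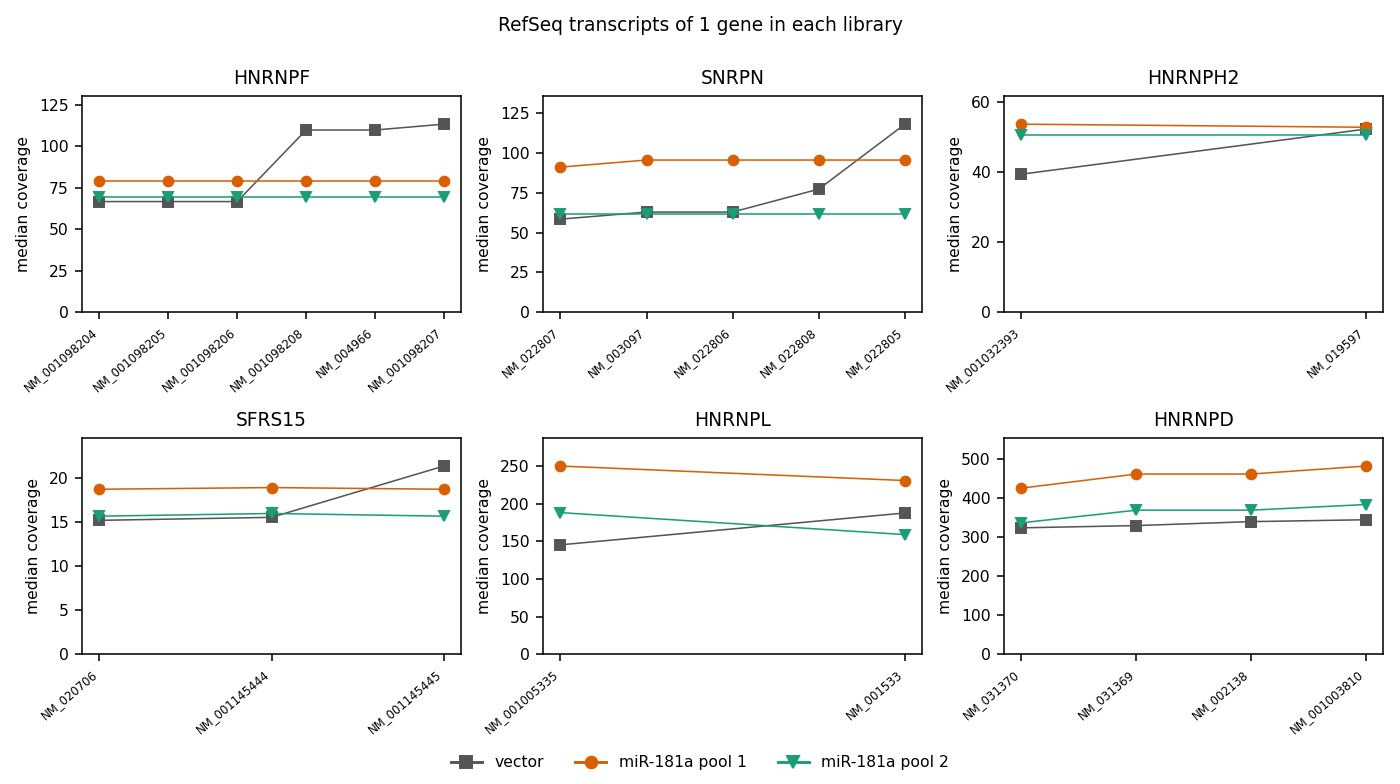
Median coverage of each RefSeq transcript of 6 genes in the vector library (squares), pool 1 (circles) and pool 2 (triangles), ordered by the vector value. In HNRNPF the pools are flat at 79.5 and 69.5 while the vector values step from 66.8 to 113, and in HNRNPD all 3 libraries vary little between transcripts.

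HNRNPH2 and SFRS15 also changed sign between transcripts. HNRNPH2 had 39.5 and 52.4 in the vector library where pool 2 had 50.6 for both, and SFRS15 had 15.2, 15.5 and 21.3 where pool 1 had 18.7, 18.9 and 18.7. Of 27 members with several transcripts these 4 (14.8%) had folds of both signs, against 28% of 4408 tested genes with several transcripts. Among 1408 sets of transcripts of 1 gene with equal values in both pools, 549 (39%) had vector values of coverage + 1 more than 1.25 times apart, 3 of them among the 8 such sets of members. Where the vector and pool 1 were equal instead, pool 2 differed by that much in 2 of 497 sets, and where the vector and pool 2 were equal, pool 1 did in 1 of 490. HNRNPL had a mean log2 fold of 0.58 for the transcript used here, which was higher in both pools, and 0.03 for the other, which was at 0.30 in pool 1 and -0.24 in pool 2. Transcripts of some other genes differed little. All 4 transcripts of HNRNPD had log2 folds from 0.23 to 0.32, both of SFRS1 0.77 and 0.82, and both of SF3B1 0.46 and 0.72. The shorter SF3B1 transcript differed from the full one in the order of the pools, with 20.2 with the vector, 23.8 in pool 1 and 33.3 in pool 2.

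Members with a miR-181a seed match in the 3 prime UTR had a median fold close to that of other abundant genes. Matches to bases 2 to 8 (TGAATGT) or to bases 2 to 7 followed by A (GAATGTA) were counted on the transcript strand, an 8-base TGAATGTA once. They were found in 18 of 61 members (29.5%), against 26.3% of 12291 tested genes with a 3 prime UTR and 19.4% of those with a pool mean above 50. The 18 had a median log2 fold of 0.64 in pool 1 and 0.39 in pool 2 and the other 43 had 0.43 and 0.17. In all tested genes the corresponding values were 0.25 and -0.11 with a match and 0.25 and -0.12 without, and in those with a pool mean above 50 they were 0.66 and 0.33 with and 0.64 and 0.29 without. Of the 18, 15 (83.3%) were higher in both pools, against 80.8% of genes above 50 with a match and 45.3% of all genes with one. Of the 43, 27 (62.8%) were, against 76.8% and 44.7% of genes without a match. The 6 members with an 8-base match ran from 0.11 for HNRNPA0 to 0.98 for SFRS18, with SFRS7 at 0.81, SFRS6 at 0.71, HNRNPR at 0.51 and SFRS11 at 0.34. HNRNPA0, with 105 with the vector, 145 in pool 1 and 87.7 in pool 2, carries 4 matches in a 3 prime UTR of 7498 bases. Members with a match had longer 3 prime UTRs, with medians of 2835 bases for an 8-base match, 3535 for a 7-base match only and 667 for none. HNRNPCL1 and SFRS8, the lowest members, had no match.

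**Figure D4:**
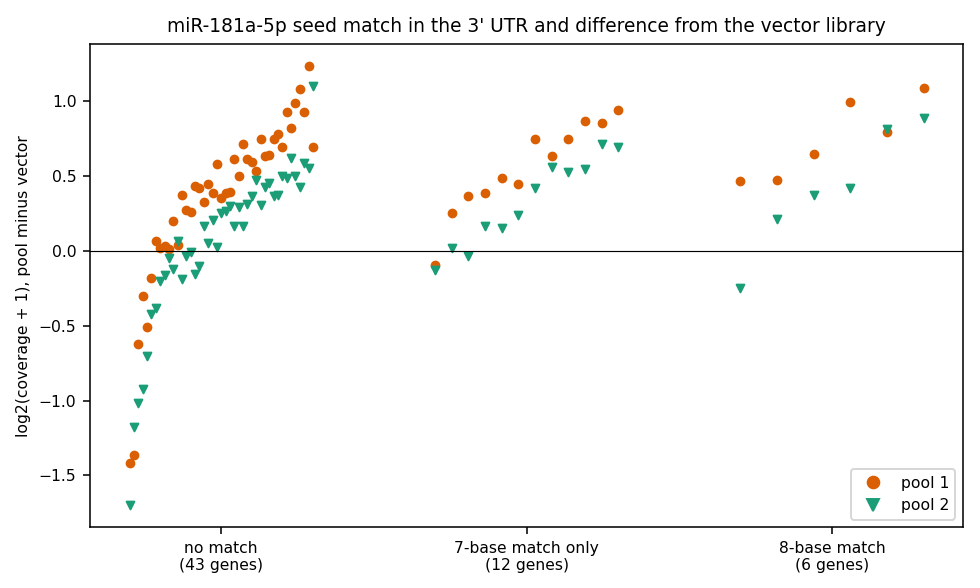
Difference in log2(coverage + 1) from the vector library in pool 1 (circles) and pool 2 (triangles) for members with no miR-181a-5p seed match in the 3 prime UTR (43), a 7-base match only (12) and an 8-base match (6), each ordered by mean fold. The lowest values are among members with no match.

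Other genes of splicing, 168 by symbol in the table, had a median close to that of the members. Of 155 tested, 116 were higher in both pools (background 44.6%, or 77.5% above a pool mean of 50) and 13 lower (background 41.8%). By limma 0 rose (background 1%) and 4, CELF2, MBNL3, A2BP1 and CELF3, fell (background 21.7%). The median log2 fold was 0.38, against 0.34 for the members. Both pools list CELF2, A2BP1 and CELF3 at 0, against 84.6, 16.1 and 14.9 in the vector library, and MBNL3, a muscleblind protein, had 4.43, 1.61 and 1.64. With pool values under the limit of 2.435, all 4 entered the test only through the vector library. SR protein kinases, which phosphorylate the SR proteins, were listed together with TNPO3, which is not a kinase. The 8 genes had a median of 0.51, and 7 of them were higher in both pools (background 44.6%, or 77.5% above a pool mean of 50). CLK2 had 45.9 with the vector, 79.5 in pool 1 and 67.5 in pool 2, and PRPF4B had 23.0, 50.6 and 34.3.

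Further proteins tied to the U1, U5, U4, U6 and minor snRNPs had a median of 0.33 over 24 genes. In both pools 17 were higher (background 44.6%, or 77.5% above a pool mean of 50) and none lower (background 41.8%). SNRNP200, the helicase that unwinds U4 from U6, had 73.8, 164 and 131 (log2 fold 0.98, limma adjusted p = 0.153). LSm proteins, some of which form the ring of U6, had a median of 0.33 over 10 genes. The list of the SMN complex, which loads Sm rings, had 0.36 over 14 genes. It also holds PRMT5, WDR77, CLNS1A and COIL, which are not subunits of that complex. Among proteins of the Prp19 complex and the catalytic step, 25 of 32 were higher in both pools, near the 77.5% of genes above 50. Lower in both were 2, among them BCAS2 with 48.2, 21.4 and 19.7. Regulators of alternative splicing had a median of 0.46 over 39 genes. RBM5 had 24.1, 53.7 and 52.7, while PTBP2, a neuronal relative of PTBP1, had 20.2, 8.51 and 7.64, and neither passed the test. Of 15 regulators typical of epithelium or neurons, 12 were at 0 in both pools, as were 8822 of the 28848 transcripts with a vector value. Vector values of these 12 ran from 0, in CELF5, ELAVL4 and KHDRBS3, to 16.1 in A2BP1.

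**Figure D5:**
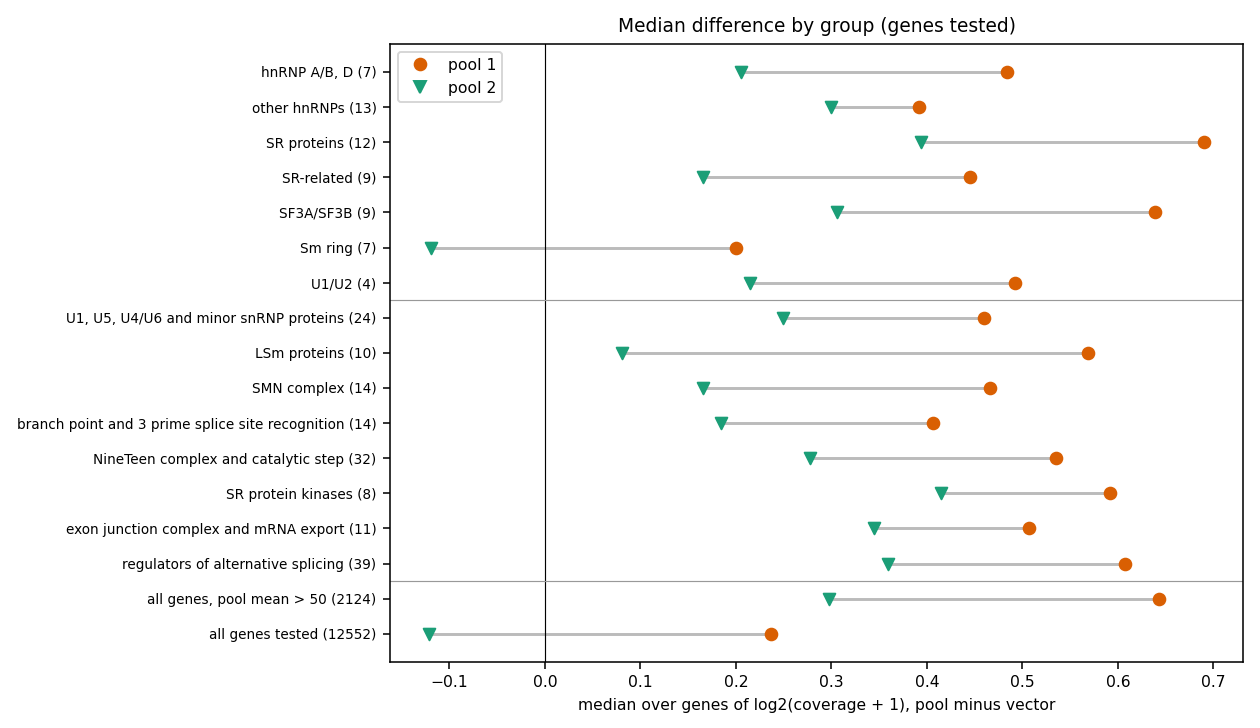
Median difference in log2(coverage + 1) from the vector library in pool 1 (circles) and pool 2 (triangles) for the role groups of the members (top), other lists of splicing genes (middle) and all genes (bottom), with the number tested in parentheses and without the list of epithelial and neuronal regulators, of which 3 were tested. Of the lists of splicing genes shown, the Sm ring lies lowest, at 0.20 and -0.12, and SR proteins lie highest in pool 1, at 0.69.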

How the data were processed

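RNA enriched for poly-A was sequenced from A2780 cells in 3 libraries. Reads were mapped to hg19, per the labels' protocols, and the authors deposited as coverage signal the median density over sliding windows of 50 bp. Log transformation and quantile normalization are named there, yet the deposited values are linear with unlike quantiles. Not given in the sources used here are the aligner, the annotation release and the treatment of reads that fit several genes. Coverage is blank for the vector in 308 rows, which were left out.

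The transcript with the highest mean over libraries stood for a gene. After genes at 0 in every library, the lowest 25% by mean were left out, and the rest were tested with limma 3.58.1 in R 4.3.3 on log2(coverage + 1), with eBayes, a variance trend and 1 residual degree of freedom. The fit was tested on simulated data. UTRs and coordinates are from GENCODE 44 on GRCh37, identities from blastn 2.17.0. No protein sequences were used, so copies were judged on coding bases.

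Members and lists were chosen with earlier results of these data known. The rule for named genes took in each role group the 4 largest folds shared by both pools and the 2 of highest coverage, any member past the test or with no vector value, members whose transcripts differ in direction past 1 log2 unit, and close copies. Elsewhere it took SMAD7 and, in each list, up to 3 genes and any past the test. Other members were named after their values were seen. Alternatives covered filter, pseudocount, scaling, transcript choice, variance model and each pool left out. Coding bases of other copies are not reported here.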

Additional observations from a re-analysis of the deposited data

How the results depend on the processing

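Counts of members past the test depended on scaling. With library medians set equal 51 rose (background 50.6% of all genes tested) and 2 fell (background 29.5%). With quantile normalization 25 rose (background 44.9%) and 2 fell (background 26.6%). With the shift by genes above 50, 3 rose (background 5.66%) and 13 fell (background 46.1%). Without a variance trend 1 rose (background 1.28%), and with a filter at the median 2 fell (background 17.6%). Medians set equal gave 12 members at least 1 log2 unit higher and 1 lower, quantile normalization 2 and 1, and 7 were higher at a size of 1.5-fold. Leaving out each pool in turn gave 1 to 3 higher, 2 to 3 lower and a median log2 fold of 0.24 to 0.48. That median was 0.76 with medians set equal and -0.13 with the shift.

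Signs turned as follows. With the shift, log2 folds were -0.36 for HNRNPA0, -0.17 for each of HNRNPA2B1, HNRNPA3 and HNRNPAB, -0.22 for HNRNPC, -0.15 for HNRNPD, -0.13 for HNRNPH3, -0.19 for HNRNPK, -0.31 for HNRNPU, -0.0085 for HNRNPUL2, -0.33 for SF3A1, -0.35 for SF3B14, -0.38 for SF3B2, -0.31 for SF3B4, -0.13 for SFRS11, -0.082 for SFRS17A, -0.13 for SFRS2IP, -0.42 for SFRS3, -0.076 for SFRS9, -0.032 for SNRPA, -0.14 for SNRPA1, -0.22 for SNRPC, -0.34 for SNRPD1, -0.43 for SNRPD3 and -0.35 for SNRPG. With quantile normalization they were -0.11 for HNRNPA2B1, -0.059 for HNRNPC, 0.071 for HNRNPH2, 0.21 for SFRS12IP1, 0.50 for SFRS13B, 0.061 for SFRS15 and 0.18 for SFRS16. With medians set equal they were 0.40 for HNRNPH2, 0.30 for SFRS12IP1, 0.11 for SFRS15, 0.26 for SFRS16, 0.33 for SNRPE and 0.35 for SNRPF. With transcripts picked on the pools alone they were 0.15 for HNRNPF, 0.39 for HNRNPH2, 0.15 for SFRS15 and 0.29 for SNRPN, and with the mean of transcripts 0.17 for HNRNPH2 and 0.013 for SNRPN. Without pool 1 they were -0.25 for HNRNPA0, -0.038 for HNRNPU, -0.15 for SF3A1, -0.035 for SF3B14, -0.19 for SF3B2, -0.10 for SF3B4, -0.12 for SNRPD3 and -0.0095 for SNRPG, and without pool 2 they were 0.014 for HNRNPH2, 0.069 for SFRS16, 0.021 for SNRPE and 0.032 for SNRPF. A scaling moves every fold of a library by construction, and the cause of other turns was not tested. No paired analysis was possible because the vector group has 1 library and no replicate number. The depth behind each value is unknown.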
